A study of Mus musculus with 6 samples.

Results

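The genes described here are 5 receptors through which monocytes and related leukocytes sense attractants: Ccr1, Ccr2, Ccr7, Cx3cr1 and Cmklr1. They were taken from the deposited table by gene symbol. All 5 were found among its 14992 genes, and all 5 passed the filter on low counts that left 12806 genes to test. The members were chosen by their symbols, with the measured counts and fold changes of this same inhibitor contrast already known, so its fold changes and adjusted p-values below describe the members and support nothing further. Messenger RNA had been measured in mouse bone marrow from 6 libraries. Irradiated C57/BL6 recipients carried whole marrow from Dnmt3a knockout donors, which the treatment protocol calls leukemic, and received either vehicle (3 libraries, numbered 1, 2 and 3) or a PI3Kalpha/beta inhibitor at 75 mg/kg (3 libraries, numbered 1, 3 and 5, whose titles begin with Bay) for 21 days. Both groups therefore share the knockout, the irradiation and the transplant, and no library of unmutated marrow was analysed here. The sources used here do not give how the knockout was made, the age of the mice, what share of the marrow was still of the host, or whether each library came from its own mouse. The p-values then measure only the spread between these libraries, which may be technical.

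Chemokine receptors and their relatives are G protein-coupled receptors. A ligand bound outside the cell releases Gi proteins inside it, and the cell crawls up the ligand gradient. Ccr2, which binds Ccl2, Ccl7 and Ccl12, is known for carrying classical monocytes out of the marrow into blood. Cx3cr1, which binds fractalkine (Cx3cl1), is highest on non-classical monocytes and on many tissue macrophages. Ccr1, a receptor for Ccl3, Ccl5 and related chemokines, is found on neutrophils as well as monocytes. Ccr7, which binds Ccl19 and Ccl21, leads mature dendritic cells and lymphocytes to lymph nodes. Cmklr1 binds chemerin, the product of Rarres2, and is known from macrophages, plasmacytoid dendritic cells and NK cells. Class I PI3K is among the enzymes that act downstream of these receptors.

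Ccr1, Ccr2 and Cx3cr1 lie on chromosome 9 of the mouse genome (GRCm38, RefSeq). Ccr1 spans 123962126 to 123968692 on the minus strand and Ccr2 spans 124101918 to 124109140 on the plus strand, 133.2 kb further on. Cx3cr1 spans 120048683 to 120068296 on the minus strand, 3893.8 kb before Ccr1. Cmklr1 lies on chromosome 5 from 113612355 to 113650475, and Ccr7 on chromosome 11 from 99144199 to 99155077, both on the minus strand. The RefSeq promoter table of build GRCm38.p6 has an entry for 4 of the 5 members, and Ccr7 is named only. The 250 bases before the start site are shown for Cmklr1, which fell with the inhibitor, beside Ccr1, which did not pass the test. Those of Cx3cr1 (chr9:120068297-120068546) and Ccr2 (chr9:124101933-124102182) overlap untranslated exons of other isoforms in GENCODE M21 and were searched but are not shown. The start site used for Cmklr1 lies inside the span of its longer isoforms. The sequences run 5′ to 3′ on the strand of the gene, and capitals mark GGAA on either strand (TTCC when read here), the core bound by ETS factors such as PU.1, a master regulator of myeloid cells.
Cmklr1, chr5:113643604-113643853, minus strand: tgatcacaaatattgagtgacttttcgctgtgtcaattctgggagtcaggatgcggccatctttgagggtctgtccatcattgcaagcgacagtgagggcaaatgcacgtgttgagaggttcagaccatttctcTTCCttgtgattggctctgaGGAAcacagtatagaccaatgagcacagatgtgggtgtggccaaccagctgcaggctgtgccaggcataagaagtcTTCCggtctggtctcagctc
Ccr1, chr9:123968693-123968942, minus strand: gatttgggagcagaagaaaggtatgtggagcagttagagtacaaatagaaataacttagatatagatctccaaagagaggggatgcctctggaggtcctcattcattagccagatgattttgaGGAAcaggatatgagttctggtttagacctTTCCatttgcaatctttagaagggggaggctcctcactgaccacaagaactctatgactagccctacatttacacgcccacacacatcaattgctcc

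The GGAA core occurs 2 times before Cx3cr1 and Ccr1 and 3 times before Cmklr1 and Ccr2. It is also present in 93.4% of the 32851 promoters of the table over the same 250 bases. None of the 4 windows held, on either strand, the longer PU.1 sequence GAGGAAGT, which contains the core and is in 2.44% of all promoters. The C/EBP sequence TTGCNNAA (9.56% of all promoters) and the FOXO sequence GTAAACA (3.17%) were not in them either. The KLF sequence CCACCC (28.1% of all promoters) was found 1 time, before Cx3cr1, starting 221 bases before the start site. CpG dinucleotides, the sites that DNA methyltransferases such as Dnmt3a act on, numbered 4 before Cx3cr1, 5 before Cmklr1 and 1 each before Ccr1 and Ccr2, against a median of 6 over all promoters. At most 1 CpG was present in 18.8% of all promoters. These matches describe letters in a window and not bound sites, and methylation was not measured.

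The receptor genes differed widely in level. Levels are compared between genes as RPKM, counts scaled to library size and gene length, and within a gene as CPM, counts scaled to library size alone. Values in threes follow the order vehicle 1, 2, 3 and inhibitor 1, 3, 5. In vehicle libraries Ccr2 had the highest mean, 169 ± 83.8 RPKM (SD, n = 3), and Ccr1 followed at 117 ± 18.1 RPKM. The ranges of Ccr2 (72.7 to 222 RPKM) and Ccr1 (97.0 to 132 RPKM) overlapped, so this pair did not differ beyond its spread. Cmklr1 stood at 26.5 ± 21.3 RPKM and Cx3cr1 at 12.05 ± 2.29 RPKM, again with overlapping ranges. Ccr7 was lowest at 2.26 ± 0.485 RPKM, below every vehicle value of the other 4. Among all tested genes, the vehicle means of Ccr2 and Ccr1 lay at percentiles 97.1 and 95.5 and that of Ccr7 at percentile 26.1.

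In inhibitor libraries the order of means changed. Ccr1 led at 151 ± 28.3 RPKM and Ccr2 followed at 104 ± 31.2 RPKM, still with overlapping ranges. Cx3cr1 stood at 3.69 ± 0.321 RPKM, Cmklr1 at 2.79 ± 0.758 RPKM and Ccr7 at 2.62 ± 0.700 RPKM. Cmklr1 overlapped both Cx3cr1 and Ccr7, while the lowest value of Cx3cr1 (3.33 RPKM) lay above the highest of Ccr7 (3.21 RPKM). By its mean, Cmklr1 went from percentile 76.9 of all tested genes to percentile 30.3, and Cx3cr1 from 57.7 to 34.1. TPM in place of RPKM gave the same order of means in both groups.

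**Figure D1:**
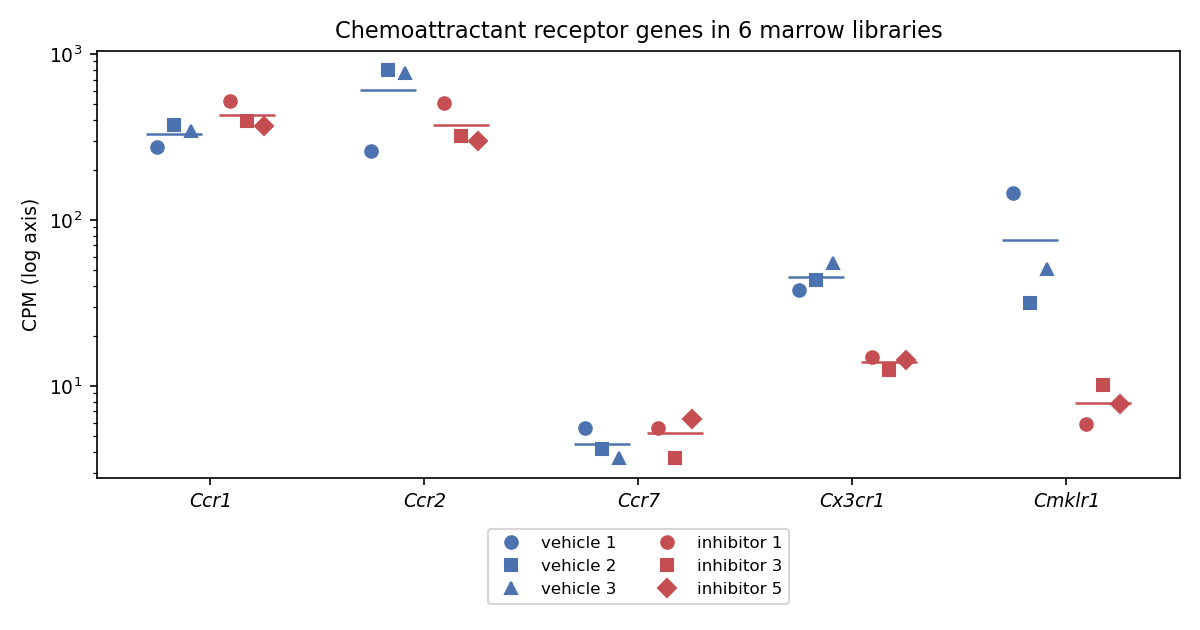
CPM (log axis, within-gene comparison only) of each receptor gene in the 3 vehicle (blue) and 3 inhibitor (red) libraries, with horizontal lines at the group means (n = 3). The groups do not overlap for Cx3cr1 and Cmklr1 and overlap for Ccr1, Ccr2 and Ccr7, and the circle for vehicle 1 is the lowest of all 6 for Ccr2 and the highest of all 6 for Cmklr1.

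With the inhibitor 2 of the 5 receptor genes fell and 0 rose in edgeR's quasi-likelihood test at an adjusted p under 0.05. Over all tested genes 1.19% were called lower and 0.633% higher (1.83% in either direction), and the choice of the members used this contrast, so nothing is read from their count. The groups did not overlap for the same 2 genes, and across all tested genes 16.2% separated in that direction and 30.7% in either. In bulk marrow, fewer cells that carry a receptor and less of its RNA per cell cannot be told apart.

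Cmklr1, the chemerin receptor gene, stood at 144, 31.5 and 50.5 CPM with vehicle and 5.86, 10.2 and 7.76 CPM with inhibitor. All 3 vehicle libraries were above all 3 inhibitor libraries, and vehicle 1 was well above the other vehicles: within vehicle the highest value was 4.58 times the lowest, against 1.74 times within inhibitor. The means were 75.5 ± 60.5 and 7.92 ± 2.16 CPM (SD, n = 3), and Cmklr1 fell by 3.25 ± 0.58 (log2, SE), with an adjusted p of 0.0453 in edgeR, a 9.54-fold difference. Without vehicle 1 it fell by 2.38 (adjusted p = 0.00471). The call was lost without vehicle 3 or any 1 of the inhibitor libraries (adjusted p from 0.101 to 0.177), at log2 fold changes of -3.06 to -3.47.

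Cx3cr1, the fractalkine receptor gene, stood at 37.7, 43.4 and 54.6 CPM with vehicle and 14.8, 12.5 and 14.2 CPM with inhibitor. The groups were apart and narrow, and vehicle 1 was the lowest of its group here, not the highest. The means were 45.2 ± 8.58 and 13.8 ± 1.21 CPM (SD, n = 3), and Cx3cr1 fell by 1.71 ± 0.17 (log2, SE), with an adjusted p of 0.0223 in edgeR, a 3.26-fold difference. With each library left out in turn the log2 fold change ran from -1.82 to -1.55, and the call held without vehicle 1 or vehicle 2 and was lost without any of the other libraries (adjusted p from 0.0723 to 0.134). In those 4 fits edgeR called no gene at all in either direction, with 985 to 1428 genes lower at an unadjusted p under 0.05. DESeq2, run with each library left out as an alternative chosen after seeing the data, called 491 to 709 genes lower there, Cmklr1 and Cx3cr1 among them each time.

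Ccr2, the receptor gene of classical monocytes, stood at 261, 797 and 765 CPM with vehicle and 503, 320.3 and 300.1 CPM with inhibitor. Vehicle 1 was the lowest of all 6 libraries, and the other 2 vehicles were the highest, so the groups overlapped. The log2 fold change was -0.70 ± 0.42 (SE; edgeR adjusted p = 0.372). Without vehicle 1 it was -1.06 ± 0.23 and passed (adjusted p = 0.0319), and it also passed under limma voom with sample quality weights, at -1.15 (adjusted p = 0.00639), where vehicle 1 had a weight of 0.161. DESeq2 without vehicle 1 gave -1.07 (adjusted p = 0.000113).

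Ccr1, shared by monocytes and neutrophils, stood at 275, 375 and 343 CPM with vehicle and 518, 396 and 367 CPM with inhibitor. Vehicle 1 was again the lowest, and vehicle 2 lay above inhibitor 5. The log2 fold change was 0.37 ± 0.19 (SE; edgeR adjusted p = 0.295), and it did not pass in any alternative run.

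Ccr7, the homing receptor gene of mature dendritic cells and lymphocytes, was low throughout. It stood at 5.53, 4.14 and 3.69 CPM with vehicle and 5.53, 3.65 and 6.34 CPM with inhibitor, from 98 to 232 reads per library. The groups overlapped almost fully. The log2 fold change was 0.22 ± 0.28 (SE; edgeR adjusted p = 0.676), and no alternative run called it. In the authors' deposited table the log2 fold changes were -3.24 for Cmklr1, -1.71 for Cx3cr1, -0.70 for Ccr2, 0.37 for Ccr1 and 0.23 for Ccr7. In the authors' deposited table the adjusted p was under the same threshold for Cmklr1 (1.75e-08) and Cx3cr1 (9.47e-13) and not for the other 3.

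**Figure D2:**
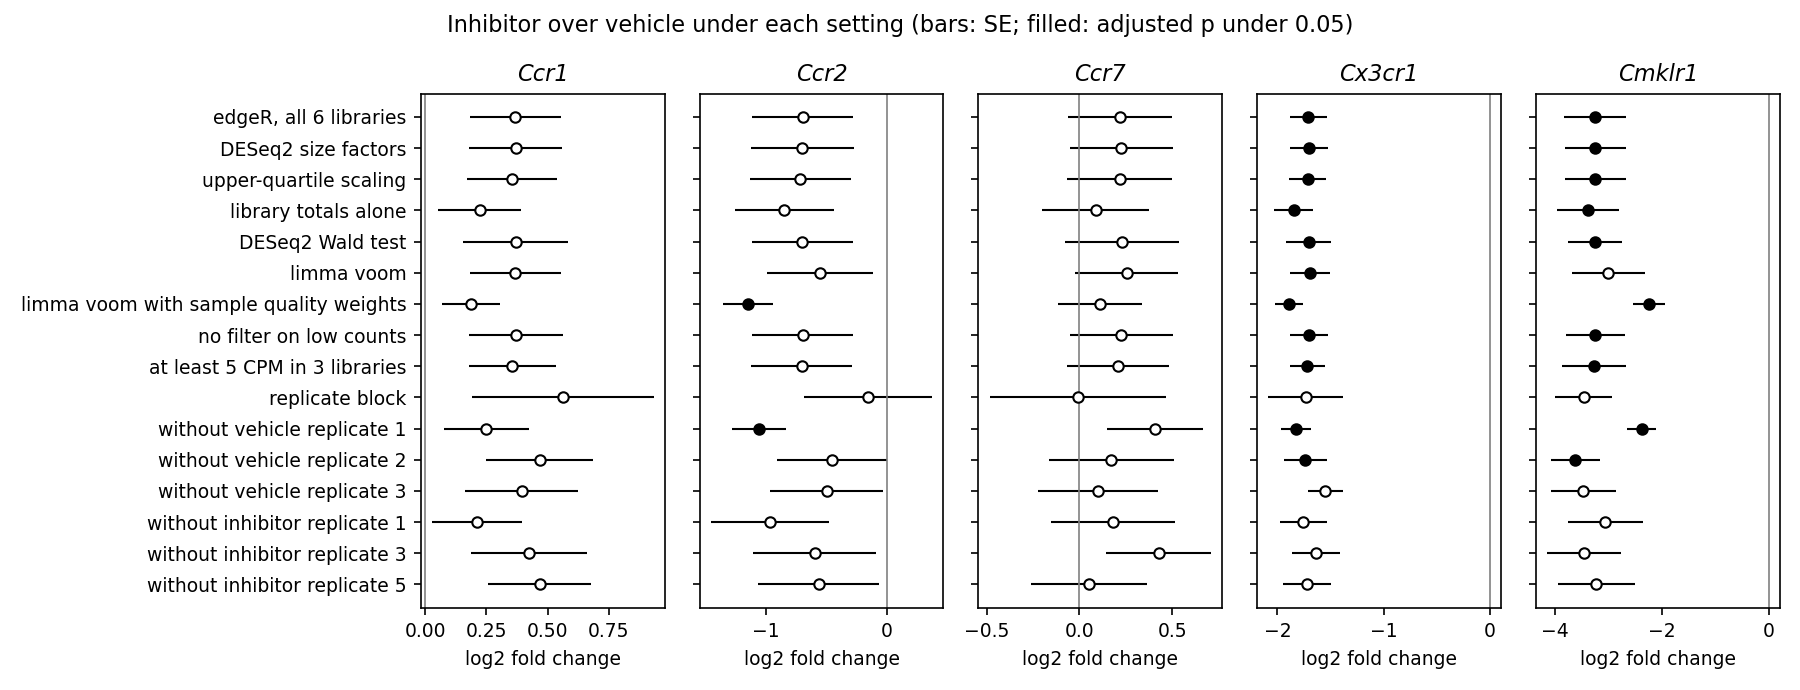
Log2 fold change, inhibitor over vehicle, of each receptor gene under the edgeR test on all 6 libraries and its alternatives, leaving out the DESeq2 fits without single libraries, with bars for the SE. Filled points have an adjusted p under 0.05, and each panel has its own horizontal scale; Cx3cr1 and Cmklr1 lie below 0 throughout, while Ccr2 is filled in 2 of the settings drawn and Ccr1 and Ccr7 in none.

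The make-up of the receptor genes within each library is given as the share of each in their summed RPKM. Ccr1 and Ccr2 together made up most of the sum in every library. Ccr2 took 58.6% and 57.8% in vehicles 2 and 3, but 31.2% in vehicle 1 and 37.5% to 42.2% in the inhibitor libraries. Cmklr1 took 21.8% in vehicle 1, 2.92% and 4.82% in vehicles 2 and 3, and 0.620% to 1.501% in the inhibitor libraries. Cx3cr1 took 3.05% to 4.30% in vehicle and 1.19% to 1.70% in inhibitor libraries. Per unit length there were 7.24, 19.2 and 14.7 Ccr2 reads for each Cx3cr1 read with vehicle and 35.5, 26.8 and 22.1 with inhibitor, so the groups did not overlap in that ratio. For Ccr2 over Ccr1 the ratios were 0.750, 1.68 and 1.76 with vehicle and 0.766, 0.638 and 0.644 with inhibitor, and here vehicle 1 fell among the inhibitor libraries. For Cmklr1 over Cx3cr1 vehicle 1 stood alone at 5.06, with 0.958 and 1.22 in the other vehicles and 0.521, 1.07 and 0.720 in inhibitors 1, 3 and 5.

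**Figure D3:**
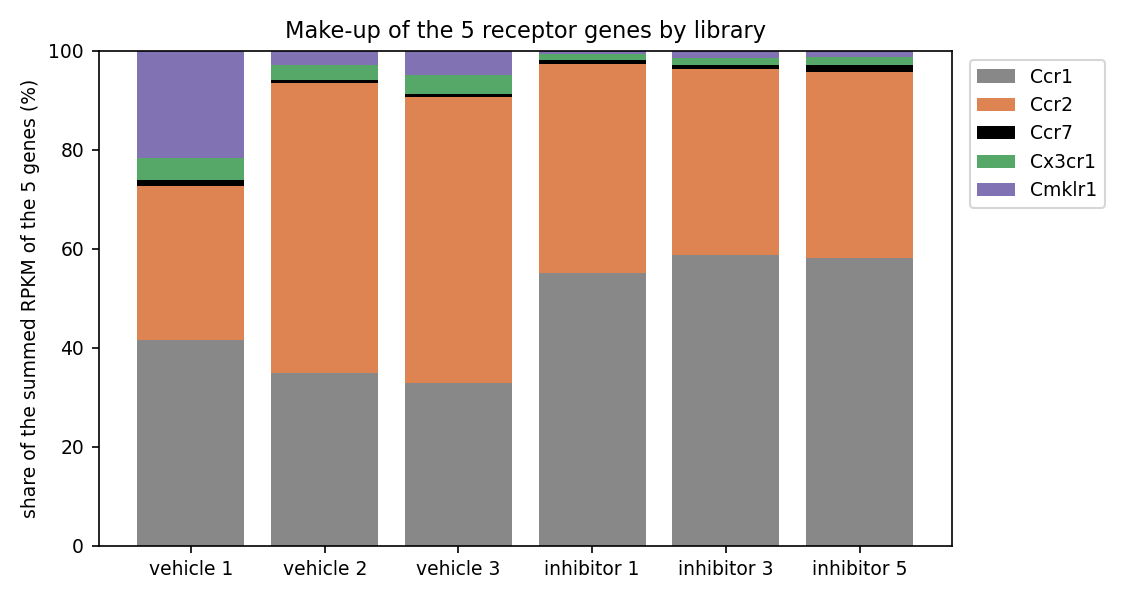
Share of each receptor gene in the summed RPKM of all 5 (percent, stacked to 100), 1 bar for each library. The purple part, Cmklr1, is 21.8% in vehicle 1 and at most 4.82% elsewhere, and the orange part, Ccr2, is 58.6% and 57.8% in vehicles 2 and 3.

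The 5 genes also had different company. For each, the 3 genes with the most similar profile were found as those with the smallest root mean square difference in log2(CPM + 1), centred on the mean of each gene over the 6 libraries. The search covered 9316 genes whose mean reached 5 CPM. The members and genes without a regular symbol (Gm numbers, Rik and pseudogene names) were left out. Nearest to Cmklr1 were Fabp7, a fatty acid binding protein gene (0.15 log2 units), Msr1, a scavenger receptor gene of macrophages (0.19), and the syndecan gene Sdc3 (0.19). Msr1 and Sdc3 fell and Fabp7 did not pass (edgeR adjusted p = 0.0403, 0.0434 and 0.0552). Nearest to Cx3cr1 were Cd180, a Toll-like receptor relative (0.17 log2 units), Rasgrp1, a Ras activator (0.19), and Gpr35, a receptor with reported roles in leukocyte migration (0.20), and all 3 fell (edgeR adjusted p = 0.0240, 0.0323 and 0.0240). Nearest to Ccr2 were Tifab (0.15), Rassf4 (0.15) and Raph1 (0.15), none of which passed. Nearest to Ccr1 were Stag2, a cohesin subunit gene, Tmx3 and Arfgef1, at 0.041 to 0.048 log2 units. Nearest to Ccr7 were Plcg1, a phospholipase gene, Rnf138 and Slc35b3, at 0.11 to 0.12 log2 units. Of these 15 genes, 5 were also named without vehicle 1: Fabp7, Msr1 and Sdc3 for Cmklr1, Raph1 for Ccr2 and Stag2 for Ccr1. All those named for Cx3cr1 and Ccr7 were replaced by others. Between the members the same measure was smallest for Ccr1 and Ccr7 (0.37 log2 units) and largest for Ccr1 and Cmklr1 (1.81). Profiles over 6 libraries in 2 groups share library size and group, so these distances are descriptions only. Genes chosen for likeness to Cmklr1 or Cx3cr1 share their gap between the groups by that choice. Their adjusted p-values therefore support nothing further.

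Ccr1 and Ccr2 lie among other receptor genes on chromosome 9. The stretch of about 342 kb from Ccr9 to Ccr2 holds 7 receptor genes, Ccr1 and Ccr2 included. Ccr3, an eosinophil receptor gene between Ccr1 and Ccr2, had a log2 fold change of -0.16 ± 0.32 and was low, at 1.41 to 2.60 CPM. The other tested receptors of that stretch were Ccr9 and Cxcr6, named after their values were seen, and Xcr1, with log2 fold changes of -0.85, -0.56 and -2.14 and no call. Across the stretch, log2 fold changes of tested receptors thus ran from -2.14 to the 0.37 of Ccr1. Xcr1 was very low, at 1.43, 0.50 and 0.38 CPM with vehicle and 0.20, 0.07 and 0.23 CPM with inhibitor. Its log2 fold change was -1.34 without vehicle 1. Ccrl2, a chemerin-binding relative 12904.6 kb before Ccr1, had a log2 fold change of -0.80 ± 0.46 and stood at 27.5, 7.38 and 11.2 CPM with vehicle and 7.35, 8.67 and 10.3 CPM with inhibitor. Without vehicle 1 its value was -0.08. Reads of near copies can be split: 0.429% of all 36-base words in Ccr1 transcripts also occur in Ccr3, with 0 shared words for Cx3cr1, Cmklr1 and Ccr7 against the other receptors compared. Cmklr1 overlaps the antisense gene Gm15736, and a longer annotated form of Cx3cr1 overlaps 9 other genes. The library chemistry does not mark strand, so reads in such overlaps cannot be told apart.

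Of 19 other chemokine receptors and scavenger relatives reported here 14 were tested. In edgeR 0 of these 14 were called, with unadjusted p under 0.05 for 1 higher and 3 lower genes, and DESeq2 called 2 lower. Over all 12806 tested genes the unadjusted counts were 1240 higher and 1524 lower, and DESeq2 called 926 lower. Their median log2 fold change was -0.17 against 0.00093 over all tested genes, and it was -0.43 without the filter on low counts, -0.06 without vehicle 1 and 0.04 without inhibitor 3. The smallest p-values belonged to Cxcr3, a receptor gene of activated T and NK cells, at -0.96 ± 0.29 (SE; edgeR adjusted p = 0.116), and Xcr1, a receptor gene of cross-presenting dendritic cells, at -2.14 ± 0.68 (adjusted p = 0.132). Cxcr3 passed in edgeR without vehicle 1 (adjusted p = 0.0345). In DESeq2 with all libraries Cxcr3 passed (adjusted p = 0.0276) and Xcr1 did not (0.0641), so the other DESeq2 call was a different gene of the list. The 5 left out for low counts were Ccr6, Ccr8, Ccr1l1, Ackr2 and Ackr3. Among receptors for other attractants 16 of 21 listed genes were tested, with a median of 0.15. EdgeR called 3 lower and 0 higher, against 1.19% and 0.633% of all tested genes. C3ar1, the receptor for the complement fragment C3a, stood at 60.3, 23.6 and 28.9 CPM with vehicle and 6.80, 6.59 and 5.52 CPM with inhibitor. It fell by 2.58 ± 0.37 (log2, SE), with an adjusted p of 0.0336 in edgeR. Gpr35 fell by 1.63 ± 0.18 (adjusted p = 0.0240), and Cysltr1, a receptor for cysteinyl leukotrienes, fell by 1.38 ± 0.20 (adjusted p = 0.0344). The median of this list was -0.11 without vehicle 1. Each of these 3 calls was lost without vehicle 3 or any 1 of the inhibitor libraries, fits in which edgeR called 0 genes. That of Cysltr1 was also lost without vehicle 2.

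**Figure D4:**
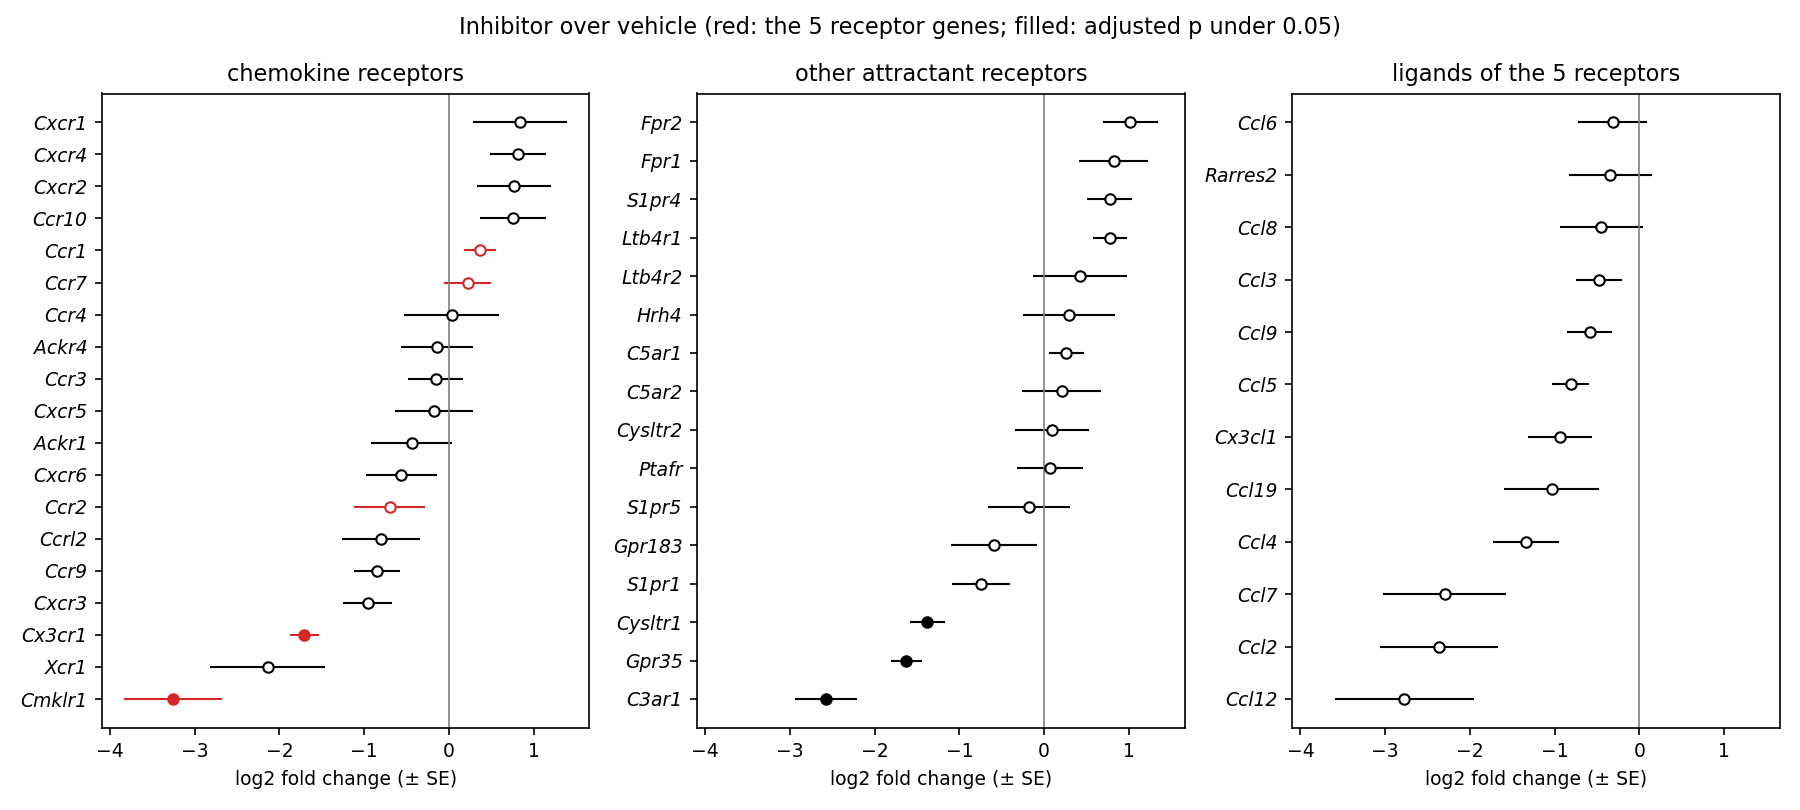
Log2 fold change, inhibitor over vehicle, with its SE for the tested chemokine receptors reported here (left, the 5 receptor genes in red), every tested receptor for other attractants (middle) and every tested ligand of the 5 receptors (right). Filled points have an edgeR adjusted p under 0.05: Cmklr1 and Cx3cr1 at left, C3ar1, Gpr35 and Cysltr1 in the middle, and none at right.

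Of 13 listed ligands of the 5 receptors 12 were tested, and 0 were called in either direction. At an unadjusted p under 0.05, 6 were lower and 0 higher in edgeR, against 1524 lower and 1240 higher of all 12806 tested genes. DESeq2, run as an alternative, called 5 lower: the Ccr2 ligands Ccl2 (adjusted p = 0.00563), Ccl7 (0.0112) and Ccl12 (0.00594), and Ccl4 (0.0282) and Ccl5 (0.0147). It called 926 of the 12806 tested genes lower. With each library left out, DESeq2 called 1 to 5 ligands lower. Without vehicle 1, Ccl7 (DESeq2 adjusted p = 0.0658) and Ccl12 (0.0712) no longer passed. All 12 had negative log2 fold changes in edgeR over all 6 libraries (median -0.87), and those of Ccl6, Ccl8 and Rarres2 turned positive without vehicle 1 and under voom with sample quality weights. The groups did not overlap for 7 of the 12, against 16.2% of all tested genes in that direction. Ccl2, the main monocyte attractant, was low, at 9.35, 3.76 and 2.59 CPM with vehicle and 1.40, 1.38 and 0.283 CPM with inhibitor (log2 fold change -2.37 ± 0.69; edgeR adjusted p = 0.111). Ccl7 and Ccl12, its neighbours in function, had log2 fold changes of -2.30 and -2.77. Without vehicle 1 the values of Ccl2, Ccl7 and Ccl12 were -1.65, -1.62 and -1.65.

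Vehicle 1 was the highest library for Ccl2, Ccl7 and Ccl12. Among the inflammatory chemokines, Ccl3, Ccl4 and Ccl5 had log2 fold changes of -0.48, -1.33 and -0.81. The abundant Ccr1 ligands Ccl6 and Ccl9 had values of -0.31 and -0.59, and Ccl9 one of -0.20 without vehicle 1. Ccl6 stood at 1420.3 CPM in vehicle 1 against 498 and 548 CPM in vehicles 2 and 3. Ccl8 had a value of -0.45. Cx3cl1, the ligand of Cx3cr1, was below 1 CPM in all 6 libraries (log2 fold change -0.94), and so was Ccl19, a ligand of Ccr7 (-1.03). Rarres2, which encodes chemerin, stood at 4.76, 1.82 and 1.42 CPM with vehicle and 1.63, 1.97 and 2.66 CPM with inhibitor, with full overlap (-0.34).

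The machinery downstream of the receptors showed no call. The 32 tested genes were for G protein subunits, receptor kinases, arrestins, RGS proteins, the gamma class of PI3K, Rac regulators and their partners. In edgeR 0 of the 32 passed, with unadjusted p under 0.05 for 3 higher and 2 lower genes, and DESeq2 called 2 higher. Over all 12806 tested genes the unadjusted counts were 1240 higher and 1524 lower, and DESeq2 called 628 higher. The median log2 fold change was 0.14, and it was 0.05 without vehicle 1, 0.03 without inhibitor 1, 0.25 without inhibitor 5 and -0.00017 with library totals alone. The smallest p-values belonged to Arrb2, an arrestin that ends receptor signalling, at 0.52 ± 0.15 (SE; edgeR adjusted p = 0.106), and Rgs18, which speeds the inactivation of G proteins, at 0.95 ± 0.30 (adjusted p = 0.130). The 2 that DESeq2 called were these, with adjusted p of 0.0201 for Arrb2 and 0.0341 for Rgs18. DESeq2 called neither without vehicle 3, inhibitor 1 or inhibitor 3 (adjusted p from 0.0811 to 0.205). It called both without vehicle 1, Rgs18 alone of the pair without vehicle 2, and Arrb2 alone without inhibitor 5. Without vehicle 1, Rgs18 passed in edgeR (adjusted p = 0.0446).

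Marker lists of the cells that can carry these receptors moved in different directions, and their part in the receptor values was not tested. Of 16 macrophage markers 6 were called lower (Maf, Spic, Mertk, Cd5l, Adgre1 and Vsig4) and 0 higher, against 1.19% and 0.633% of all tested genes. In every inhibitor library 15 were lower than in any vehicle library, against 16.2% of all tested genes. Without vehicle 1, 14 were called lower. DESeq2 and voom with quality weights each called 15 lower, and edgeR with the replicate block called 2 lower. The median of the macrophage markers was -2.68, and -1.74 without vehicle 1. Their summed level ran from 2654 to 8944 CPM in vehicle, highest in vehicle 1, and from 999.6 to 1302 CPM in inhibitor libraries. Of 10 non-classical monocyte markers 2 were called lower in edgeR, Treml4 by 1.36 ± 0.23 and Cd300e by 4.14 ± 0.72, and 0 higher. DESeq2 called 2 lower and 1 higher. The list had a median of -0.79, and -0.20 without vehicle 1, and summed levels of 962 to 1474 CPM in vehicle and 950.4 to 1130.4 CPM in inhibitor libraries. Its mean log2(CPM + 1) was 6.38, 4.99 and 5.31 with vehicle and 4.75, 4.77 and 4.82 with inhibitor, without overlap.

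Of 10 classical monocyte markers 0 were called in edgeR, with a median of 0.32 (0.07 without vehicle 1). Unadjusted p was under 0.05 for 3 higher and 1 lower, against 1240 higher and 1524 lower of all 12806 tested genes. Without vehicle 1 edgeR called 1 higher and 2 lower, and DESeq2 with all libraries called 3 higher and 1 lower. Summed levels of these were 10685 to 19054 CPM in vehicle, lowest in vehicle 1, and 20672 to 28798 CPM in inhibitor libraries. A sum follows its most abundant genes, and 4 of the 10 markers had negative log2 fold changes. The mean log2(CPM + 1) of the list was 8.79, 9.73 and 9.67 with vehicle and 9.78, 9.39 and 9.27 with inhibitor, with overlap. Vcan, a proteoglycan gene of classical monocytes, had a log2 fold change of -1.74 ± 0.50, and Mgst1, a glutathione transferase gene, one of 0.81 ± 0.22, without passing in edgeR.

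Of all tested genes edgeR called 0.633% higher and 1.19% lower. Among 10 neutrophil markers 2 were called higher, Camp and Elane, and summed levels were 39557 to 64155 CPM in vehicle and 101580 to 122361 CPM in inhibitor libraries. Without vehicle 1, 5 neutrophil markers were called higher, and DESeq2 and voom with quality weights each called 8. Of 12 T and NK cell markers 1 was lower (Prf1), against 3 lower without vehicle 1 and 0 without vehicle 2, while DESeq2 called 4 lower and 1 higher and voom with quality weights 7 lower. Of 11 tested dendritic cell markers 1 was higher, Cd209a, a lectin of monocyte-derived dendritic cells, and DESeq2 called 2 others lower. Of 8 B cell markers 2 were higher (Vpreb1 and Igll1), and DESeq2 called 6. Of 8 basophil and eosinophil markers 3 were higher (Prg3, Prg2 and Epx). Without vehicle 2 edgeR called 0 neutrophil, 0 B cell and 1 basophil or eosinophil marker higher, with 7 of all 13016 tested genes called higher. Without vehicle 3 or any 1 of the inhibitor libraries it called 0 genes in either direction, so no marker of any list could be called. No listed marker was at 0 in all libraries.

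Set against the mean log2(CPM + 1) of the macrophage markers in the same library, Cmklr1 stood at -1.20, -1.92 and -1.39 with vehicle and -2.13, -2.03 and -2.13 with inhibitor. The means differed by 0.59 log2 units on that scale and the groups did not overlap. Cx3cr1 on the same scale stood at -3.11, -1.47 and -1.28 with vehicle and -0.92, -1.75 and -1.33 with inhibitor, with overlap. Set against the classical monocyte markers, Cx3cr1 stood at -3.52, -4.26 and -3.87 with vehicle and -5.80, -5.63 and -5.35 with inhibitor, and the groups did not overlap. Ccr2 on that scale stood at -0.76, -0.09 and -0.08 with vehicle and -0.81, -1.06 and -1.04 with inhibitor. Here all 3 inhibitor libraries were below vehicle 1, which itself lay close to inhibitor 1. Ccr1 on that scale stood at -0.69, -1.18 and -1.24 with vehicle and -0.76, -0.75 and -0.75 with inhibitor, with vehicle 1 above the inhibitor libraries and the other vehicles below them. Set against the non-classical monocyte markers, Cx3cr1 stood at -1.11, 0.48 and 0.48 with vehicle and -0.76, -1.01 and -0.89 with inhibitor, and the groups overlapped through vehicle 1, the lowest of all 6. Cmklr1 on that scale stood at 0.80, 0.03 and 0.37 with vehicle and -1.97, -1.29 and -1.68 with inhibitor, without overlap. These differences are descriptions by library and were not tested.

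**Figure D5:**
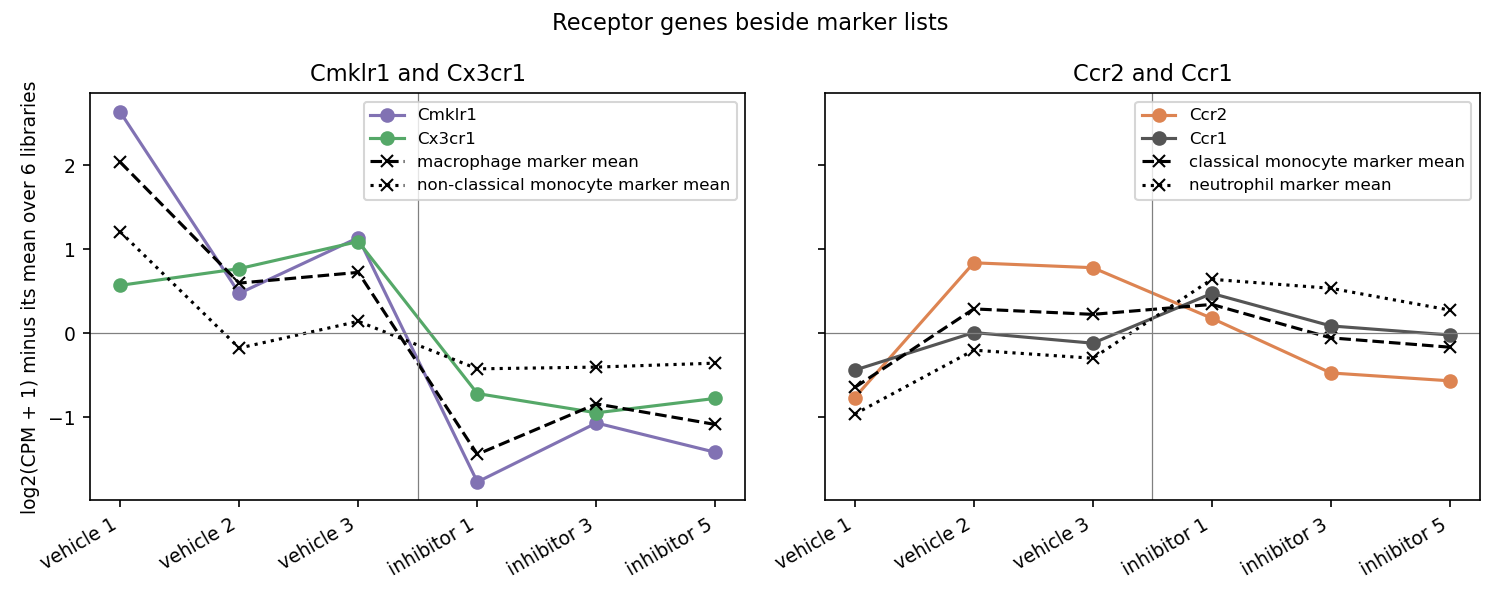
Log2(CPM + 1) minus its mean over the 6 libraries for Cmklr1 and Cx3cr1 beside the mean of the macrophage and non-classical monocyte markers (left), and for Ccr2 and Ccr1 beside the classical monocyte and neutrophil markers (right). Lines only join points of one series; Cmklr1 and the macrophage markers are highest in vehicle 1, and Ccr2 is lowest there.

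Total counts over genes ran from 28198638 to 59384880 per library, and the closest pair, vehicles 2 and 3, differed well beyond sampling noise (chi-square of 31.6 per degree of freedom), so none was counted as a duplicate. Dnmt3a itself stood at 17.3 to 24.9 CPM in vehicle and 15.4 to 20.2 CPM in inhibitor libraries, and a count over the whole gene in 2 groups that both carry the knockout checks no label. Vehicle 1 stood apart from vehicles 2 and 3 in the mean log2 level of the macrophage, both monocyte and neutrophil marker lists, and not in the T and NK cell or dendritic cell lists. Over all tested genes edgeR called 81 higher and 153 lower, and without vehicle 1 it called 401 higher and 633 lower.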

How the data were processed

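RNA had been extracted with an RNeasy Plus Micro kit and made into libraries with SMART-Seq v4 and Nextera XT, per the labels' protocols. Reads were aligned to mm10 with STAR and counted with featureCounts, per the submitters' processing notes; the sources used here give no versions, strand setting or gene filter. The deposited table holds raw counts per gene for the 6 libraries, a gene length, and, per the file headers, the authors' own comparison of inhibitor with vehicle: linear fold ratios and log2 fold changes, with p-values before and after adjustment. The sources used here do not name the test behind the authors' deposited p-values.

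From the counts, 14992 empty lines were dropped, edgeR's filterByExpr left 12806 of 14992 genes (2186 left out), TMM factors scaled the libraries, and edgeR 4.0.16 (quasi-likelihood test, R 4.3.3) compared the groups, with Benjamini-Hochberg adjustment over all tested genes and a threshold of 0.05. The SE given with an edgeR log2 fold change is the size of that change divided by the square root of its F statistic. The biological coefficient of variation was 25.2%. The fit was tested on simulated data. CPM and RPKM used the TMM-scaled totals and the deposited length. The alternatives were other scalings and filters, DESeq2 1.42.0, limma 3.58.1 with voom, a replicate block and each library left out. The members and gene lists were chosen with earlier results of these data known. Genes named with values were the members, list genes past the threshold, the 2 smallest p-values of a list with none, all ligands, and the 3 genes nearest each member in profile; others are marked as chosen after their values were seen. One item among the chemokine receptors is not reported here and stays out of that list's counts and median.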

Additional observations from a re-analysis of the deposited data

How the results depend on the processing

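Cx3cr1 and Cmklr1 were lower with the inhibitor in every alternative run, and their calls depended on the setting. The number of receptor genes called lower was 2 with all libraries in edgeR and 1 under limma voom, where Cmklr1 missed the threshold (adjusted p = 0.0810). It ran from 0 to 3 with each library left out in edgeR, with 0 in the 4 fits without vehicle 3 or 1 of the inhibitor libraries, and 3 without vehicle 1.

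Over all genes, edgeR called 81 higher and 153 lower. DESeq2 called 628 and 926, voom 30 and 55, voom with sample quality weights 1374 and 1483, and edgeR at an adjusted p under 0.10 called 422 and 634. Library totals alone moved the median of all genes to -0.14 on the log2 scale and gave 71 higher and 401 lower. With each library left out, edgeR called 0 to 401 higher and 0 to 633 lower. DESeq2 called 911 and 981 without vehicle 1, 493 and 915 without vehicle 2, 370 and 709 without vehicle 3, 305 and 647 without inhibitor 1, 258 and 491 without inhibitor 3, and 391 and 615 without inhibitor 5.

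The replicate numbers 1 and 3 are shared by both groups. Same-numbered libraries did not deviate together (correlations of -0.51 and -0.10 across genes). With 3 libraries in each group such correlations depend on one another, so they cannot settle whether a number marks a shared origin. With the replicate block edgeR called 0 genes higher and 7 lower, and 0 of the receptor genes; at an unadjusted p under 0.05 it had 537 higher and 901 lower. Under the block Ccr7 had a log2 fold change of -0.0087 and Plcg1 one of -0.20.

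Directions also turned for genes that had not passed. Under voom with quality weights, Ccl6, Ccl8 and Rarres2 stood at 0.29, 0.45 and 0.32. Without vehicle 1, Ccl6, Ccl8 and Rarres2 stood at 0.34, 0.38 and 0.38 in edgeR and at 0.33, 0.37 and 0.37 in DESeq2. Without inhibitor 5, Plcg1 stood at -0.084 in edgeR and -0.088 in DESeq2. Without inhibitor 3, Ccr3 stood at 0.034 and 0.037. Without vehicle 3, Rnf138 stood at -0.0016 in edgeR. With each library left out in edgeR, the lowest values of Ccl6, Ccl8, Rarres2 and Ccr3 were -0.57, -0.82, -0.65 and -0.41, and the highest of Rnf138 was 0.35. The cause of these changes was not tested. Ccr7 had 98 to 232 reads per library.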
